A study of Mus musculus with 12 samples.

Results

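The genes described here are those whose RNA was most abundant in the middle of 3 media. C2C12 cells, an immortal line of mouse myoblasts that can fuse into muscle fibres, were kept for 24 h in one of 3 sugars: glucose at 25 mM, called high glucose here, glucose at 5 mM, called low glucose, or galactose at 10 mM. All 3 media were DMEM with 1 mM pyruvate, 10% serum and 1% antibiotics. PolyA RNA was sequenced from 4 libraries per medium, 12 in all, and the authors' deposited table pools them into 1 value per medium and locus in FPKM, a read density corrected for transcript length and sequencing depth. The values therefore come without an SD, a spread or a depth, and whether the libraries of one medium were separate cultures is unknown. The design text of the series describes single muscle stem cells instead; the sample labels were followed.

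Members were chosen by their measured FPKM. A locus was a member where it carried 1 gene symbol, was tested by the authors in all 3 comparisons, and had at least 2 FPKM in low glucose and at least 1.3 times the value of both other media. Of 26271 loci, 9379 met every condition but the ratio, and 41 of those (0.437%) met the ratio as well. They carry 40 symbols, since 2 loci are both assigned to Larp4. The same rule turned to the other media gave 758 loci highest in high glucose and 598 highest in galactose. The level in low glucose over the higher of the other 2 levels is called the peak ratio below. It chose the members, so it and every comparison with low glucose are descriptions and were not tested again.

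Glucose enters glycolysis directly, whereas galactose is first converted by the Leloir pathway and feeds glycolysis slowly, so that cells lean more on respiration. Genes that rise or fall steadily with the supply of glycolytic sugar would be ordered from high glucose through low glucose to galactose. A gene that is highest in the middle medium does not follow that order. Whether such a gene answers to sugar supply in another way was not tested.

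The cells were myoblasts by their markers. Myod1, the master regulator of myogenesis, had 154, 108 and 71.5 FPKM in high glucose, low glucose and galactose, and the muscle filament gene Des had 456, 308 and 268 FPKM. Neither was highest in low glucose. Defining markers of cell types outside muscle were close to 0. The leukocyte gene Ptprc, the endothelial genes Pecam1, Cdh5 and Tek, and the epithelial genes Epcam and Krt5 each stayed below 0.03 FPKM in every medium. The epithelial gene Cdh1 had 0.193, 0.130 and 0.210 FPKM, and the adipocyte gene Fabp4 had 0.433, 0.524 and 0.199 FPKM. Among genes of differentiated muscle, Acta1 was not near 0, with 16.1, 11.1 and 30.2 FPKM, lowest in low glucose. Ckm had 0.282, 0.153 and 0.394 FPKM, and Myh1 did not exceed 0.220 FPKM. A locus that combines Myh4 with other myosin genes had 0.968, 0.583 and 0.724 FPKM. The macrophage marker Cd68 shares a locus with Eif4a1 and could not be read. In bulk RNA, fewer cells of a kind and less RNA per cell cannot be told apart.

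Members ranged from 2.19 to 538 FPKM in low glucose, with a median of 15.2 FPKM, beside 15.4 FPKM for all loci that could have been members. Their peak ratios ran from 1.3 to 2.30 with a median of 1.42, and 17 of the 41 reached 1.5. Over all loci that could have been members the median was 0.92, and low glucose held the highest value in 2086 (22.2%). Just inside the threshold lay Ripk2, Fabp5 and Klf10, with peak ratios of 1.321, 1.305 and 1.301. Just outside, among genes with a regular name and at least 5 FPKM, lay Tmem171, Efnb1 and Dlx1, with 1.291, 1.291 and 1.290. The genes on either side of the threshold thus differed little.

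A difference counts as called below when its q in the authors' deposited table is under 0.05. By that measure 32 of the 41 members were called higher in low than in high glucose, where 18.3% of 14699 tested loci were called higher and 36.4% in either direction. The same 32 members were called lower in galactose than in low glucose, where 16.0% of 14495 tested loci were called lower and 33.3% in either direction. Of the 14312 loci tested in both comparisons, 1.97% were called above both other media. The rule used these contrasts, so nothing is read from the members' counts. Of the 32, 29 had the lowest q of the authors' deposited table, 0.000239, in both comparisons; the exceptions were Lce1g, Ctla2a and Rcan3. Both comparisons share the low glucose libraries, so they are not independent of each other.

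**Figure D1:**
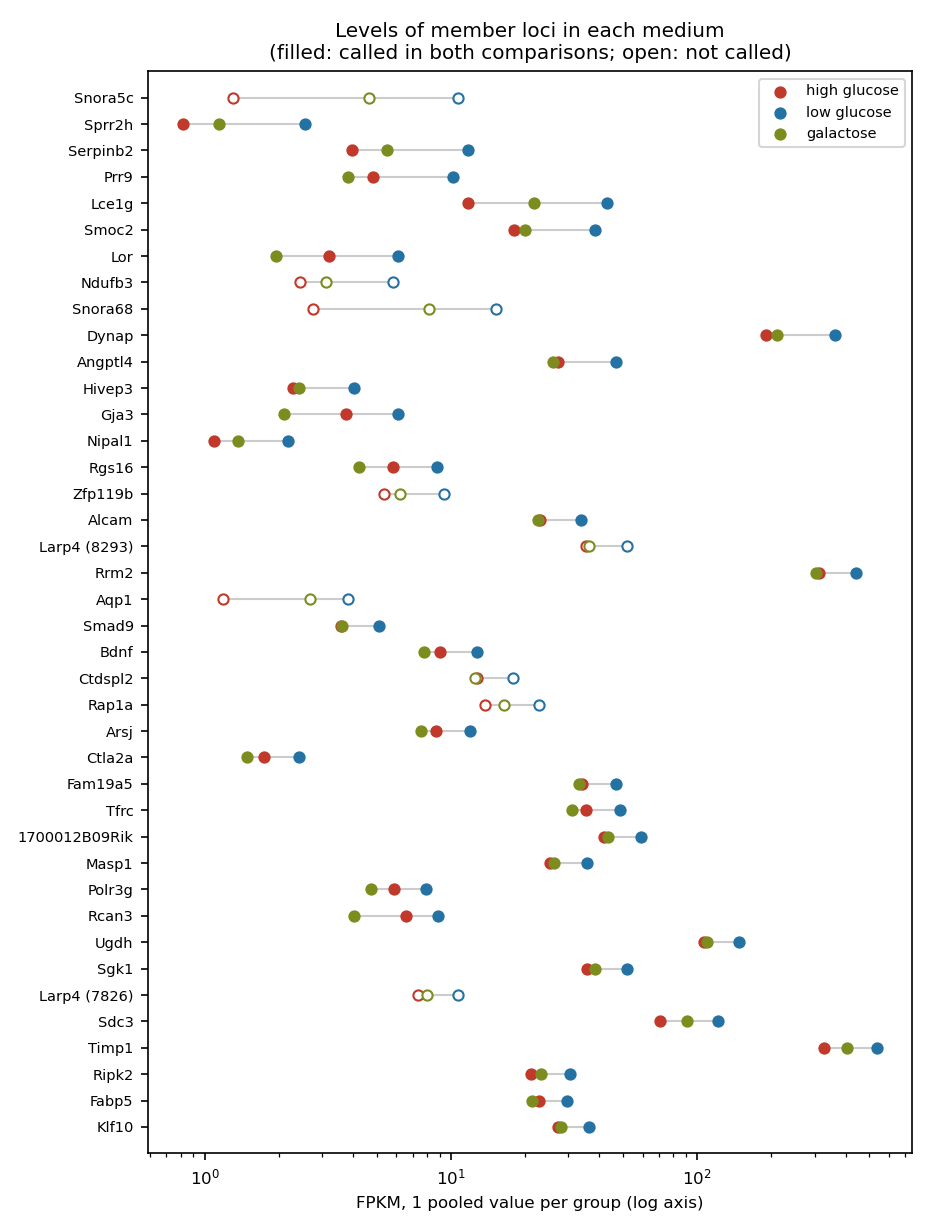
Each row is 1 of 40 member loci, with its FPKM on a log axis in high glucose (red), low glucose (blue) and galactose (olive), ordered by peak ratio from top to bottom; filled points are loci called in both comparisons and open points the 9 that were not. Low glucose lies farthest right in every row, as the rule requires, and the order of the other 2 media differs from row to row.

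Of the 7 members with the largest ratios, 4 belong to the cornified envelope genes, which build the crosslinked protein shell of dying skin cells, or lie among them. These genes lie side by side in the epidermal differentiation complex, a gene cluster used in stratified epithelium rather than in muscle. Lor encodes loricrin, the main protein of that shell. In the order high glucose, low glucose and galactose, which all triplets below follow, it had 3.20, 6.09 and 1.95 FPKM. Prr9, a neighbouring gene for a small proline-rich protein, had 4.83, 10.2 and 3.83 FPKM. Sprr2h, of the small proline-rich envelope precursors, had 0.817, 2.56 and 1.14 FPKM. Lce1g, of the late cornified envelope family, had 11.7, 43.2 and 21.8 FPKM. Lor and Prr9 were thus lowest in galactose, while Sprr2h and Lce1g were lowest in high glucose. Between high glucose and galactose Lor and Prr9 were called. Sprr2h and Lce1g were not (q = 0.103 and 0.0734 in the authors' deposited table).

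The 4 loci span 685 kb of chromosome 3, from 92080271 to 92765104 (mm10). The Lor and Prr9 loci are 37.2 kb apart, and no other members with different symbols lay within 100 kb of each other. The flanking genes S100a9 and S100a11, chosen as borders after the values were seen, enclose 54 loci with a symbol. Of these, 48 stayed below 1 FPKM in every medium and 23 were listed at 0 in all 3. The other 6 were all highest in low glucose, as the rule required of the 4 members among them. The remaining 2 loci were passed over by the rule because each holds 2 symbols. One of these, Sprr1a with Sprr1b, had 26.6, 35.1 and 17.5 FPKM, a peak ratio of 1.32, and was called in both comparisons of the authors' deposited table. The other, Lce1a1 with Lce1g, had 5.06, 16.0 and 9.22 FPKM and was called against high glucose but not against galactose (q = 0.175 in the authors' deposited table). The level was uneven within families: the 10 other Sprr2 loci did not exceed 0.532 FPKM, and the 18 Lce loci without Lce1g did not exceed 0.385 FPKM. Below 1 FPKM the order of the media varied. Sprr2k had 0.532, 0.461 and 0.0785 FPKM, and Crct1 had 0.136, 0.187 and 0.488 FPKM. Members of these families are close copies, so how the authors' reads were shared out among them is uncertain. The Lce1g locus is listed with the same borders as 9 other loci, far wider than the RefSeq gene, which runs from 92750151 to 92752338.

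The same interval held 10 loci without a symbol. All 10 were tested, their peak ratios ran from 0.89 to 1.27, and 1 was called in a comparison with low glucose in the authors' deposited table. Other genes of skin cells, picked after the cluster was seen, were mostly near 0 and had no common order of the media. Krt1 was listed at 0 in every medium, and Trp63, the regulator of stratified epithelium, did not exceed 0.0145 FPKM. Ivl, the involucrin gene inside the cluster, had 0.0147, 0.0317 and 0.00394 FPKM, highest in low glucose but near 0 throughout. Krt8 and Krt18, keratins of simple epithelium, did not exceed 0.0233 and 0.0140 FPKM. Krt10, a keratin of differentiating skin cells, had 1.39, 1.64 and 1.62 FPKM, with low glucose and galactose almost equal. The locus that combines Krt14 with 5 other keratins had 37.3, 28.1 and 44.0 FPKM, lowest in low glucose.

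**Figure D2:**
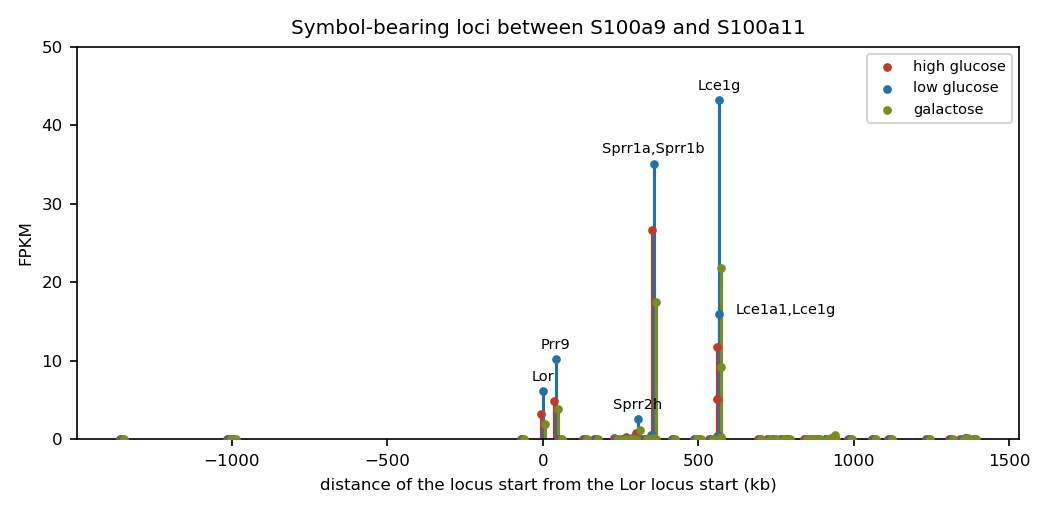
FPKM (y axis) of the 54 symbol-bearing loci between S100a9 and S100a11 in the 3 media, placed by the distance in kb of the locus start from that of Lor (x axis); the media of a locus are drawn side by side. The 6 loci above 1 FPKM are named, and in each of them the blue point of low glucose is the highest.

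The promoters of these neighbours are shown because the 4 genes share a region and a peak, together with that of Serpinb2, the called member with the largest ratio outside the cluster. Each window runs from 250 bases before the RefSeq start site to 50 bases from it (GRCm38.p6, RefSeq), 5′ to 3′ on the gene's strand. Capitals mark matches to the 7 motifs searched on both strands.
Lor, chr3:92083093-92083392, minus strand: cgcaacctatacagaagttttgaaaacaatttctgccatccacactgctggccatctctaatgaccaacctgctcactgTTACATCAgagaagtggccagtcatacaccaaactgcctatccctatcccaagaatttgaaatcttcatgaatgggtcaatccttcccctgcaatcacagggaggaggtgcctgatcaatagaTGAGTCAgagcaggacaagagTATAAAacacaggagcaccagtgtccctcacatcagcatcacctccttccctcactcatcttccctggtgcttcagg
Prr9, chr3:92123898-92124197, minus strand: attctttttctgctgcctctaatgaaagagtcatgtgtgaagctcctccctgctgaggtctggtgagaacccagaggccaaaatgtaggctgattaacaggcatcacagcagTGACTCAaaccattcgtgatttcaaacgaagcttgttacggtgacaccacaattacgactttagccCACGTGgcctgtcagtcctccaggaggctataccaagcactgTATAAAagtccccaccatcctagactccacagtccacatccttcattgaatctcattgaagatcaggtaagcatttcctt
Sprr2h, chr3:92385435-92385734, plus strand: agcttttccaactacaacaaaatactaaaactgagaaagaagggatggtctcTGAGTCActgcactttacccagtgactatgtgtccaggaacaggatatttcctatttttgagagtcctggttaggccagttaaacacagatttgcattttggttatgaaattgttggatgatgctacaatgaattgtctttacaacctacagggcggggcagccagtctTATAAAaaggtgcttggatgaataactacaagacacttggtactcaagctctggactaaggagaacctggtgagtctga
Lce1g, chr3:92752289-92752588, minus strand: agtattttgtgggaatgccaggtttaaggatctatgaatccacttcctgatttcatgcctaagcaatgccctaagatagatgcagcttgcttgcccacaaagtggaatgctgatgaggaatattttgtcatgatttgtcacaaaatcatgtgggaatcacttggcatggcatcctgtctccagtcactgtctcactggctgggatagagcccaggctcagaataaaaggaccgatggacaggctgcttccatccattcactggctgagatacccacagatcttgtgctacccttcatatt
Serpinb2, chr1:107511173-107511472, plus strand: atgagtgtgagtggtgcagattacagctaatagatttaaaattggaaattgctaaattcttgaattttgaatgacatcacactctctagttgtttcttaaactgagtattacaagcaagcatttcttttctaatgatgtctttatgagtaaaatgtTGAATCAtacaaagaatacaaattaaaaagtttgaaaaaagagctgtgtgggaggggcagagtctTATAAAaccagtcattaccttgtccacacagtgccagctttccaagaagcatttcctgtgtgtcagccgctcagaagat

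The motifs were TATAAA (the TATA box), TGANTCA (bound by AP-1), CACGTG (the E-box), TGACGTCA (the cAMP response element), TTTCGCGC (bound by E2F), TGATGNAA (a composite site of C/EBP and ATF factors) and CCGGAAG (bound by ETS factors). A window was found for 28 of the 40 symbols, and for 6965 of the symbols that could have been members. Lor, Prr9, Sprr2h and Serpinb2 each held both a TATAAA and a TGANTCA match. Their TATAAA matches began 27, 30, 29 and 29 bases before the start site. The TGANTCA matches began 48 bases before it in Lor, 138 in Prr9, 198 in Sprr2h and 94 in Serpinb2. The Lce1g window held none of the 7. Over all 28 members' windows, 7 (25.0%) held TATAAA, beside 6.06% of all 6965, and 6 (21.4%) held TGANTCA, beside 4.36%. The other members with these matches were Gja3 and Hivep3 for TATAAA, 1700012B09Rik for TGANTCA and Ctla2a for both. Their TATAAA matches lay farther out, 163 bases before the start site in Gja3, 238 in Hivep3 and 190 in Ctla2a. Those in Gja3 and Hivep3 were on the opposite strand. CCGGAAG was found in 2 members' windows (7.14%) and in 20.8% of all, and CACGTG in 1 (3.57%) and in 11% of all. TGATGNAA was in the Lor window only (3.57%; 2.08% of all), and TGACGTCA and TTTCGCGC were in 0 of 28, beside 3.70% and 0.761% of all. Lor, Prr9 and Sprr2h count towards both the TATAAA and the TGANTCA shares and lie in the same gene cluster. Their matches may therefore not be independent of each other. A match is a string of letters and not a measured binding site.

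Several members encode inhibitors or parts of proteolytic systems. Serpinb2, which encodes the urokinase inhibitor PAI-2, had 3.97, 11.7 and 5.49 FPKM. Low glucose stood 2.94 times above high glucose and 2.12 times above galactose. Its locus lies on chromosome 1 from 107511423 to 107525600. Timp1, an inhibitor of matrix metalloproteases, was the most abundant member, with 327, 538 and 405 FPKM. Its locus shares listed borders with Araf and Syn1, which had 25.3, 22.6 and 22.2 FPKM and 6.72, 7.29 and 8.14 FPKM. Neither of those was called in either comparison with low glucose in the authors' deposited table. Ctla2a, whose product inhibits cathepsins of the papain type, had 1.74, 2.41 and 1.48 FPKM. Masp1, a serine protease gene of the lectin pathway of complement, had 25.2, 35.7 and 26.3 FPKM. Of 22 genes in a list of matrix proteases and their inhibitors, 2 were called above both other media, Timp1 and Adam12, beside 2.25% of all loci that could have been members. Adam12, a metalloprotease gene of myoblasts, had 4.65, 5.58 and 3.76 FPKM, a smaller peak than the rule asks. The list's median peak ratio was 0.80, with 7 genes called higher and 11 lower in low than in high glucose. Of all tested loci 18.3% were called higher and 18.2% lower in that comparison.

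Several members encode secreted or cell surface proteins or enzymes that modify them. Smoc2 encodes a calcium-binding protein of the matrix. It had 18.0, 38.6 and 20.0 FPKM, so that the 2 outer media lay close together and low glucose stood about 1.93 times above the higher one. Angptl4, which encodes an inhibitor of lipoprotein lipase, had the same shape, with 27.3, 46.7 and 25.9 FPKM. Fam19a5, a gene for a small chemokine-like protein, had 33.9, 46.8 and 33.2 FPKM. Sdc3, the heparan sulfate proteoglycan syndecan-3, had 70.9, 121 and 91.0 FPKM. Ugdh, whose enzyme makes the UDP-glucuronate used in such sugar chains, had 106, 148 and 110 FPKM. Arsj, of the arylsulfatase family, had 8.66, 12 and 7.55 FPKM. Alcam, an adhesion molecule of the immunoglobulin family, had 23, 33.7 and 22.6 FPKM, and its 2 outer media differed the least of this group.

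Bdnf encodes a neurotrophin. The member locus had 9.04, 12.7 and 7.75 FPKM, and a 2nd locus with the same borders and symbol had 22.7, 26.0 and 18.9 FPKM. The latter was not called against high glucose (q = 0.534 in the authors' deposited table). Summed over both loci, Bdnf had 31.7, 38.7 and 26.6 FPKM, a peak ratio of 1.22, which is below the rule. The list of growth factors and ligands held 26 loci, both Bdnf loci included. Of these, 3 (11.5%) were called above both other media, beside 2.25% of all loci that could have been members. They were Angptl4, the Bdnf member locus and Vegfc. Vegfc, the lymphatic growth factor, had 9.58, 15.1 and 11.8 FPKM. The list's median peak ratio was 0.91, beside 0.92 for all loci that could have been members. Low glucose held the highest value in 9 of the 26, beside 22.2% of all loci that could have been members.

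Signalling by TGF-beta and the bone morphogenetic proteins (BMP) was represented as well. BMP ligands act through receptor kinases that phosphorylate SMAD1, SMAD5 and SMAD9. Smad9 had 3.58, 5.11 and 3.61 FPKM, with the outer media almost equal. Of 32 genes in the list of TGF-beta and BMP signalling, 5 (15.6%) were called above both other media, beside 2.25% of all loci that could have been members. Among those that missed the ratio were Grem1, a secreted BMP antagonist, with 264, 353 and 281 FPKM, the inhibitory Smad6 with 16.3, 23.9 and 19.8 FPKM, and Skil, a repressor of SMAD signalling, with 14.1, 18.1 and 16.1 FPKM. Smad7, also inhibitory, had 23.3, 38.2 and 39.4 FPKM, and the antagonist gene Fst had 5.31, 4.01 and 1.68 FPKM. Neither was highest in low glucose. As a whole the list did not peak, with a median peak ratio of 0.95. From high to low glucose 7 of its genes were called higher and 10 lower, beside 18.3% and 18.2% of all tested loci. In galactose 19 were called lower than in low glucose, beside 16.0% of all tested loci.

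Rrm2 encodes the small subunit of ribonucleotide reductase, which makes the deoxynucleotides for DNA replication. It was the next most abundant member after Timp1, with 311, 442 and 303 FPKM, and the outer media were close to each other. It was the 1 member among 66 genes of DNA replication and S phase, but 14 of the 66 (21.2%) were called above both other media in the authors' deposited table, beside 2.25% of all loci that could have been members. The other 13 peaked by less than the rule asks. Prim2, a primase subunit, had 19.8, 25.4 and 18.9 FPKM. Orc6, of the origin recognition complex, had 41.4, 54.1 and 44.5 FPKM, and the replicative helicase gene Mcm4 had 51.6, 57.9 and 49.7 FPKM. Others were Rad51ap1, Pola1, Tipin, Dscc1, Chaf1b, Exo1, Pole, Dnmt1 and Mcm3. Low glucose held the highest value in 48 of the 66, beside 22.2% of all loci that could have been members. The list's median peak ratio was 1.05, beside 0.92 for all loci that could have been members. The fall from low glucose to galactose was the broader side, with 44 called lower and 1 higher. Of all tested loci 16.0% were called lower there and 17.4% higher. From high to low glucose 21 were called higher and 4 lower, where 18.3% and 18.2% of all tested loci were. At q below 0.01, 8 of the 66 were called above both, and 117 instead of 211 of the 9379 loci that could have been members. The list of 50 mitotic genes had 1 gene called above both, beside 2.25% of all loci that could have been members. Its median peak ratio was 0.95. From low glucose to galactose 25 of the 50 were called lower and 2 higher, so the fall was not limited to replication genes. From high to low glucose 1 mitotic gene was called higher and 14 lower.

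**Figure D3:**
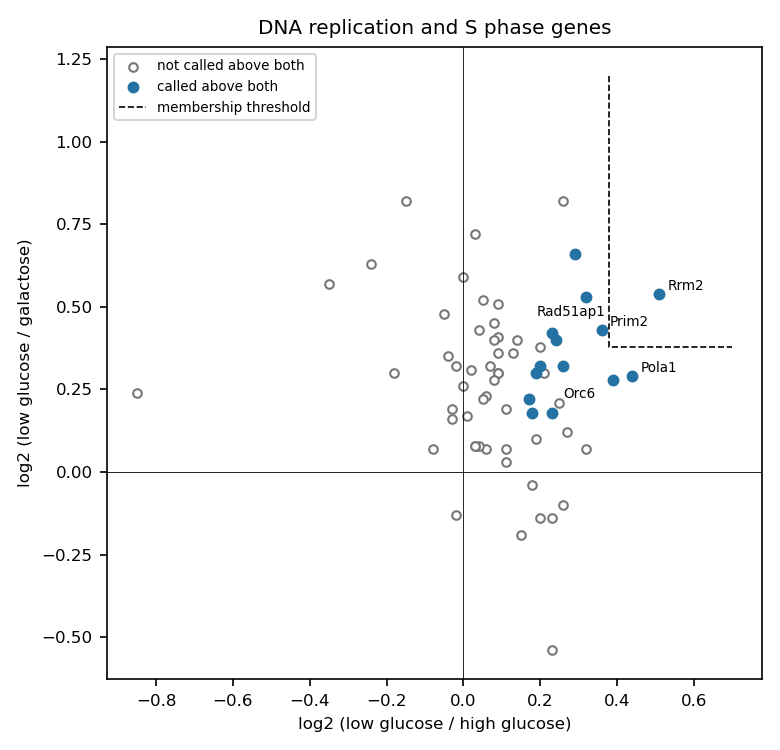
Each point is 1 of 66 genes of DNA replication and S phase, placed by its log2 ratio of low over high glucose (x axis) and of low glucose over galactose (y axis), from the authors' deposited table; blue points are the 14 called above both, and the dashed corner marks the membership threshold. Most points lie right of and above 0, and Rrm2 alone lies inside the corner.

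Signalling and transcription genes were members with mostly modest ratios. Rgs16, which shortens signalling by G proteins, had 5.82, 8.74 and 4.24 FPKM. Sgk1, a kinase induced by serum and glucocorticoids, had 35.8, 51.8 and 38.5 FPKM. Klf10, a factor induced early by TGF-beta, had 27.2, 36.5 and 28.0 FPKM and lay at the threshold. In the list of immediate early factors and feedback inhibitors, 4 of 40 (10.0%) were called above both other media, beside 2.25% of all loci that could have been members: Klf10, Dusp2, Klf6 and Spred1. The list's median peak ratio was 0.91, and 10 of the 40 were highest in low glucose, beside 22.2% of all loci that could have been members. Rcan3, a regulator of the phosphatase calcineurin, had 6.54, 8.82 and 4.05 FPKM. Ripk2, a kinase downstream of the NOD receptors, had 21.2, 30.5 and 23.1 FPKM. Hivep3, a large zinc finger factor, had 2.28, 4.04 and 2.42 FPKM. Polr3g, a subunit of RNA polymerase III, had 5.85, 7.89 and 4.74 FPKM.

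Transport and membrane genes completed the called members. Tfrc, the transferrin receptor that imports iron, had 35.3, 48.5 and 31.1 FPKM. Gja3, which encodes a connexin of lens gap junctions, had 3.74, 6.07 and 2.10 FPKM, and galactose was thus well below both glucose media. Nipal1, of a family of magnesium transporters, had 1.09, 2.19 and 1.36 FPKM. Fabp5, a carrier of fatty acids in the cell, had 22.7, 29.6 and 21.3 FPKM. Of 22 genes of fatty acid synthesis and storage, 3 (13.6%) were called above both other media, beside 2.25% of all loci that could have been members: Fabp5, Elovl4, which elongates long fatty acids, with 5.63, 8.31 and 6.71 FPKM, and Dgat2, which forms triglycerides. The list's median peak ratio was 0.88, with 6 genes called higher and 7 lower in low than in high glucose. In that comparison 18.3% of all tested loci were called higher and 18.2% lower. Dynap, for a membrane protein that binds dynactin, was among the most abundant members, with 191, 363 and 210 FPKM. The gene 1700012B09Rik had 41.8, 59.0 and 43.5 FPKM.

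The 2 outer media were compared with each other, a contrast on which the rule sets no direction although it uses both values. Between high glucose and galactose 14 of the 41 members were called in the authors' deposited table, beside 51.3% of 14812 tested loci. The 5 called higher in galactose (26.5% of tested loci were) included Serpinb2, Nipal1, Sdc3 and Timp1. Serpinb2 differed by a log2 value of 0.47 and Sdc3 by 0.36 (the authors' deposited table). The 9 called lower in galactose (24.8% of tested loci were) were Prr9, Lor, Gja3, Rgs16, Bdnf, Arsj, Tfrc, Polr3g and Rcan3. Gja3, Lor and Rcan3 went furthest down, by log2 values of -0.83, -0.71 and -0.69 (the authors' deposited table). The other 18 of the 32 called members were not called between the outer media, among them Smad9, Alcam, Rrm2 and Klf10. For these 4 the authors' deposited table gives log2 differences of 0.01, -0.02, -0.04 and 0.04. A q above the threshold does not show that 2 levels are equal, and levels alike on both sides are what a high peak ratio tends to select.

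**Figure D4:**
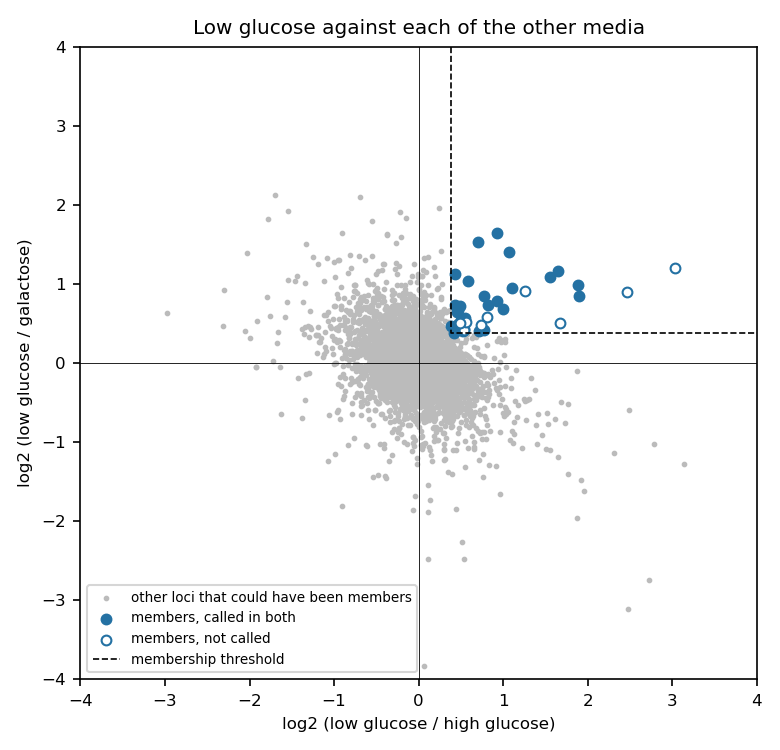
Each point is 1 of 9379 loci that could have been members, placed by its log2 ratio of low over high glucose (x axis) and of low glucose over galactose (y axis) in the authors' deposited table; members are blue, filled where called in both comparisons, the dashed corner is the membership threshold, and 2 loci lie outside the axes. The 41 members lie in the upper right, and every locus inside the corner is a member by the rule.

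The 9 members not called in either comparison with low glucose had ratios as large as the rest, with a median peak ratio of 1.43, beside 1.41 for the 32 called ones. Of the 9, 8 shared their listed borders with another locus, compared with 7 of the 32 called members and 32.3% of all loci that could have been members. A pair of them are small nucleolar RNAs, short guides of RNA modification. Snora5c, of 101 bases in RefSeq, lies in the locus of Tbrg4 and had 1.31, 10.7 and 4.67 FPKM, the largest peak ratio of all (2.30; q = 0.613 and 0.795 in the authors' deposited table). Snora68, of 98 bases, had 2.76, 15.2 and 8.18 FPKM. Tbrg4 itself did not peak, with 45.7, 57.5 and 65.2 FPKM.

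For Ndufb3 and Aqp1 the member was a minor locus of the gene. Ndufb3, a subunit gene of respiratory complex I, had 2.44, 5.82 and 3.10 FPKM in the member locus and 54.5, 59.3 and 60.8 FPKM in the main one. Summed, its peak ratio was 1.02. Aqp1, the water channel gene, had 1.19, 3.81 and 2.68 FPKM in the member locus and 80.5, 66.1 and 56.5 FPKM in the main one, which was called lower in low than in high glucose in the authors' deposited table. Its summed peak ratio was 0.86. Larp4, whose protein binds the polyA tail of mRNA, is split over 11 loci, 2 of them members with 35.2, 51.8 and 36.2 FPKM and with 7.32, 10.7 and 7.99 FPKM. The sum over the 11 had a peak ratio of 1.26. Ctdspl2, a phosphatase gene, kept a peak in the sum over its 5 loci, with 17.7, 23.3 and 16.9 FPKM and a ratio of 1.31. Zfp119b, a zinc finger gene, had 5.35, 9.38 and 6.24 FPKM beside a combined locus of Zfp119a and Zfp119b, which had 1.42, 1.35 and 1.19 FPKM. Rap1a, a small GTPase gene and the 1 uncalled member alone in its interval, had 13.7, 22.8 and 16.4 FPKM (q = 0.139 and 0.357 in the authors' deposited table). The part of shared intervals in these results was not tested.

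Most gene lists held no member. Of 51 gene lists, 9 held at least 1, and 31 of the 41 members were in none. A list with 0 genes called above both other media was common, 26 of the 51, and with 2.25% of all loci that could have been members called, a count of 0 in a list of these sizes lies near the background. In the authors' Cuffdiff results 0 genes were called above both other media among 39 of the amino acid response, 30 of glycolysis and glucose transport, 25 myogenic regulators and 20 of the sarcomere. At an unadjusted p below 0.05 these 4 counts were also 0. Among 26 genes of cholesterol synthesis and uptake the count was 0, and 1 at the unadjusted threshold. The amino acid response had a median peak ratio of 0.60 and was never highest in low glucose, and the cholesterol list stood at 0.67. Among 82 loci of respiratory chain genes, both Ndufb3 loci included, 0 were called above both, and 0 at the unadjusted threshold. The minor Ndufb3 locus is nevertheless a member.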

How the data were processed

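PolyA RNA of C2C12 cells was sequenced in 12 libraries, 4 per medium, grouped by the sample labels. TopHat2 (2.0.10), Cufflinks (2.2.0), Cuffdiff and the mouse build mm10 are listed as the authors' tools, per the submitters' processing notes; settings, annotation and normalization between libraries are not given in the sources used here. The deposited table holds FPKM, 1 value per group and locus, with the authors' log2 fold change, test score, p-value and q-value for each of 3 comparisons, per the file headers. Group values were the same in every comparison. No test was run: calls are the authors' q below 0.05, ratios are quotients of the deposited FPKM with no pseudocount, and depth is unknown. Starts were raised by 1 to count from 1.

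Members, lists and the naming rule were chosen with earlier results of these data known. List counts are counts of loci, so a gene split over several loci can count more than once. The naming rule left out predicted, Rik, Mir and Snor names and took the 15 largest peak ratios of at least 5 FPKM, the 10 highest levels, up to 4 members per list and 3 loci on each side of the threshold; nearly all other members, 1700012B09Rik and the Snor genes included, were named as well once their number was seen. The 51 lists, cell type markers and 7 motifs were written down with it; the chromosome 3 borders, skin markers and host gene were picked after values were seen. Promoters are RefSeq windows (GRCm38.p6), 1 per symbol, nearest the locus's 5′ end. Alternatives were other fold and level limits, re-centred values, values divided by their group sum, a pseudocount of 1 FPKM, q below 0.01 and adjustment within each comparison. A few named items are not reported here. The selection and adjustment were tested on simulated data. Tables were handled with pandas 2.3.3 and numpy 2.4.6 in Python 3.11.15, and plots drawn with matplotlib 3.10.9.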

Additional observations from a re-analysis of the deposited data

How the results depend on the processing

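The number of members follows the fold limit: 96 loci at 1.2, 17 at 1.5 and 4 at 2 (Snora5c, Sprr2h, Serpinb2 and Prr9). Other settings gave 36 to 52 loci. Re-centred values shared 40 of the 41 members. Values divided by their group sum gave 44 loci and shared 35; Polr3g, Fam19a5, Klf10, Tfrc, Fabp5 and Rcan3 dropped out. A pseudocount of 1 FPKM gave 36. No member's low glucose value fell below either other medium under these 3 scalings, but the membership rule had already fixed that outcome. A pseudocount cannot reverse the order of the media. Re-centring and group sums shift the media against each other by far less than the ratio the rule requires. The absence of reversals is therefore not a check of the peaks. The median peak ratio was 1.41 with group sums and 1.37 with the pseudocount. The 32 members called in both comparisons became 25 to 33 under the alternatives, 25 without members that share an interval, a setting added after the data were seen. Members called lower in galactose than in high glucose went from 9 to 5 at q below 0.01. The stricter limit also left 8 instead of 14 replication genes called above both other media. Of the loci that could have been members it left 117 instead of 211. These counts were added after the data were seen. No paired analysis was possible because the table has 1 value per group and no columns per library; for the same reason no replicate could be left out. Short loci and low values cannot be weighed by depth, which is unknown.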

Other observations

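A list without a member showed smaller peaks. Of 41 genes of the nuclear pore and nuclear transport, 5 (12.2%) were called above both other media in the authors' deposited table, beside 2.25% of all loci that could have been members. They were the pore genes Nup85, Nup107, Nup93 and Nup155 and the export receptor gene Xpo4. Nup85 had 67.4, 80.3 and 67.1 FPKM in high glucose, low glucose and galactose, and Nup107 had 35.1, 41.6 and 35.4 FPKM. The list's median peak ratio was 1.02. From high to low glucose 25 of its genes were called higher, beside 18.3% of all tested loci. From low glucose to galactose 4 were called higher and 7 lower, beside 17.4% and 16.0% of all tested loci. Among 38 guidance and synapse genes, with a median peak ratio of 0.83, 4 (10.5%) were called above both, Sema6d, Efna5, Efnb2 and Efnb1, the last of them just outside the membership threshold.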
